A study of Mus musculus with 12 samples.

Results

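The 9 genes described here belong to the kynurenine pathway and were followed through RNA sequencing of liver tumours: Tdo2, Ido2, Afmid, Kmo, Kynu, Haao, Acmsd, Qprt and Aadat. The members were chosen by gene symbol, and all 9 were found among the 46095 genes of the table. All 9 also passed the filter on low counts that left 14666 genes for testing. The tumours were hepatocellular carcinomas that the chemical carcinogen diethylnitrosamine had induced in mice. Among the 12 libraries, the genotype was Pck1-null for 7 (KO) and wild type for 5 (WT). Pck1 encodes the cytosolic phosphoenolpyruvate carboxykinase of gluconeogenesis, and the study asked how the tumour transcriptome differs without it. Every animal of both groups carried the carcinogen treatment, so the data hold no untreated liver. The strain, sex, age, carcinogen dose, targeting construct and number of tumours per animal were not stated in the labels.

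The kynurenine pathway is the main route by which the body breaks down tryptophan, and hepatocytes carry most of it. Its first step opens the indole ring, later steps make kynurenine, 3-hydroxykynurenine and 3-hydroxyanthranilate, and the end of the route either builds the coenzyme NAD or burns the carbon for energy. Side branches make kynurenic acid, and kynurenine itself is a ligand of the aryl hydrocarbon receptor.

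Total counts ran from 17462102 to 46747125, with 7 libraries at or under 23663506 (4 KO and 3 WT, called shallower) and 5 at or above 43071365 (3 KO and 2 WT, called deeper). Pck1, the targeted gene, stood at 111 to 1170 CPM in KO and at 1060 to 5820 CPM in WT, where CPM is the read count divided by the scaled library size, on the usual CPM scale. Only KO replicate 3 passed the lowest WT library, replicate 4, and Pck1 differed by −3.28 ± 0.67 (fitted log2, SE; edgeR adjusted p = 0.170). The libraries of highest likeness were WT replicates 2 and 5 (r = 0.98 over 14666 genes), both deeper, followed by KO replicate 6 with WT replicate 2 (r = 0.959). The counts of WT replicates 2 and 5 differed by more than counting noise (chi-square per degree of freedom of 182), as did those of every other pair. They were kept as 2 samples by their labels, since this measure cannot tell separate tumours from separate preparations of 1 tumour. The hepatocyte markers Alb, Ahsg, Fgb and Trf summed to 72100 to 200000 CPM in KO and 68600 to 240000 CPM in WT. Whether each library is a separate animal is not stated in the labels, and p-values therefore reflect only how these samples vary, which may be technical. In such bulk tissue, fewer cells of a type and less RNA per cell cannot be told apart.

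All 9 genes had a negative fitted log2 fold change in KO against WT, where 46.3% of all genes tested did. Their fold changes ran from −2.46 for Ido2 to −0.35 for Qprt with a median of −1.16, beside a median of 0.03 over all genes. After adjustment over all 14666 genes, edgeR's quasi-likelihood test called 0 of the 9, and it called 0 genes in the whole table (0%). At an unadjusted p under 0.05 the count was 5 of 9, all lower in KO (Ido2, Kmo, Haao, Afmid and Kynu), where 7.44% of all genes tested were lower and 7.25% higher at that level. In 1 of 9 genes, Ido2, all 7 KO libraries lay below all 5 WT libraries, which held for 0.58% of all genes (0.634% in the opposite direction). DESeq2 called 3 of the 9 lower (Ido2, Kmo and Haao), where it called 1.71% of genes lower and 1.77% higher. Limma-voom with sample weights called 5 (Ido2, Afmid, Kmo, Kynu and Haao), where it called 8.18% lower and 6.4% higher.

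**Figure D1:**
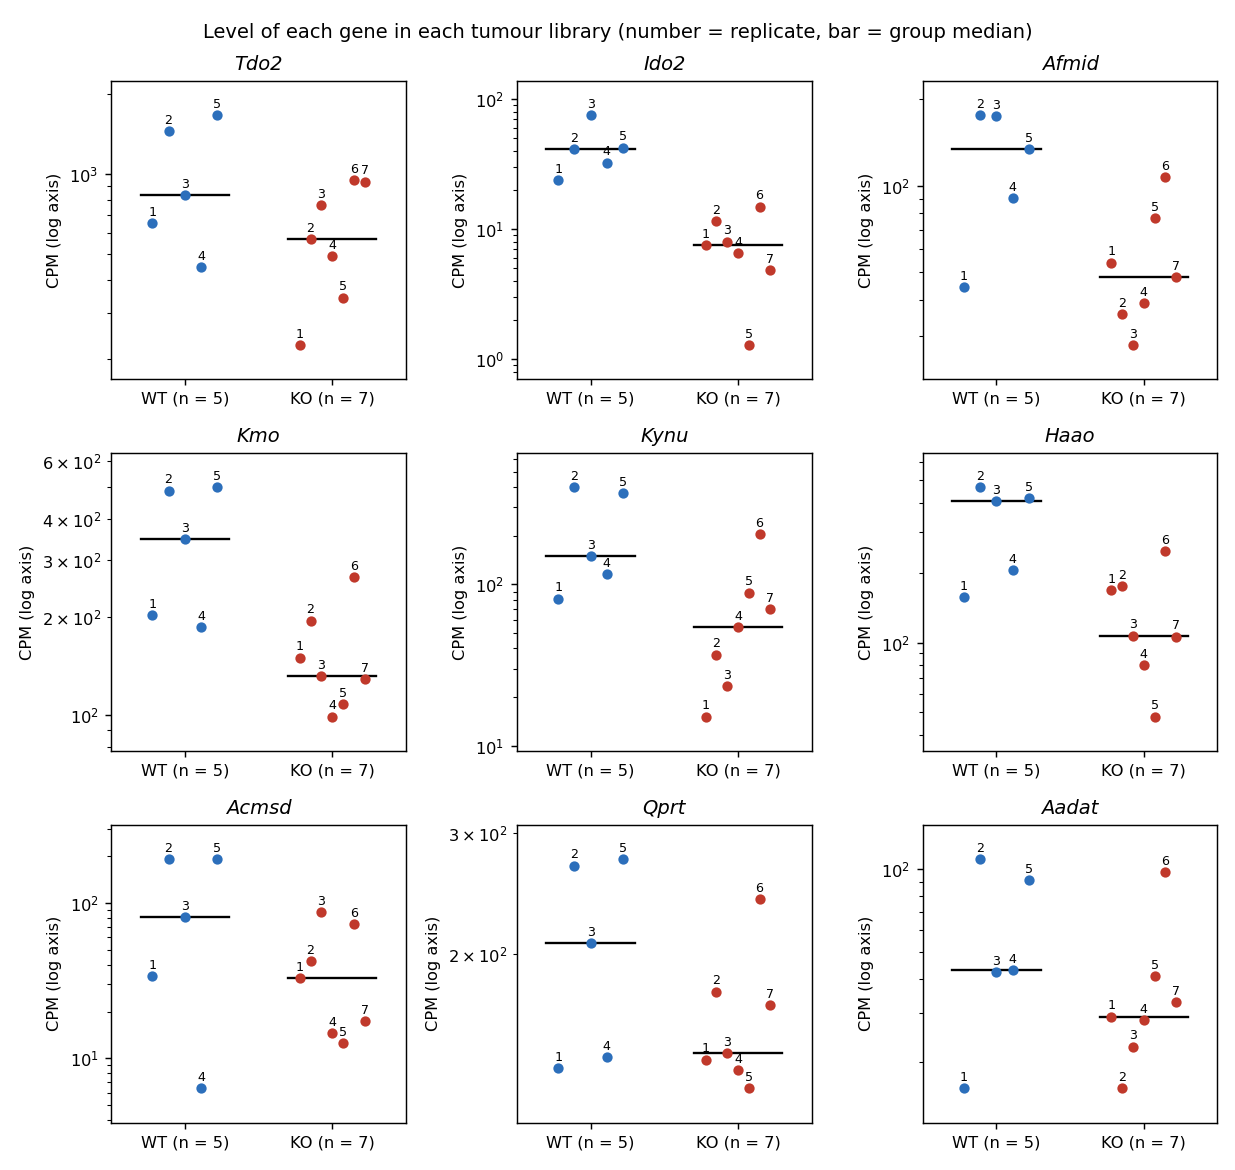
Level of each of the 9 genes in CPM (log axis) in the 5 WT (blue) and 7 KO (red) libraries; the number beside a point is the replicate and the bar is the group median. Ido2 is the panel in which no KO library reaches a WT library, and KO replicate 6 is the highest KO library in 8 of the 9 panels.

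Compared per kilobase of exon, Tdo2 had the highest level of the pathway, with a median of 206 CPM per kilobase over the 12 libraries. It was followed by Haao at 119, Qprt at 75.9 and Kmo at 48.1. Afmid stood at 28.2, Kynu at 17.8, Aadat at 17.7, Acmsd at 14.1 and Ido2, the lowest of the 9, at 5.38. Kynu, Aadat and Acmsd overlapped widely over libraries and have no order beyond their spread. In KO, Haao (33.2 to 172, median 74.1) and Qprt (62 to 117, median 69.8) overlapped as well. Their WT medians were 282 and 101. Lengths were those of the merged exons in the GENCODE annotation of GRCm38, and Ido1 stood at 0.0199 on the same scale.

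The first step is shared by Tdo2, the liver enzyme that opens the indole ring of tryptophan, and by the dioxygenases Ido1 and Ido2. Tdo2 (chr3:81958412-81975728, GRCm38.p6, as all positions here) had 227 CPM at the lowest, 569 at the median and 946 at the highest in KO. In WT its levels were 652, 1450, 832, 445 and 1660 CPM in replicates 1 to 5. The groups overlapped, and KO replicates 1 and 5 alone lay below the WT range. The fold change was −0.72 ± 0.41 (fitted log2, SE) with an edgeR adjusted p = 0.421, and mean log2 CPM gave p = 0.150 by exact permutation (two-sided, as in all such tests here).

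Ido2 (chr8:24531892-24576414) is a paralog of Ido1 that lies next to it in the genome. In KO it stood at 1.29 CPM at the lowest (replicate 5), 7.57 at the median and 14.9 at the highest (replicate 6). WT replicates 1 to 5 held 23.8, 41.4, 75.0, 32.5 and 42.4 CPM. No KO library reached the lowest WT library. Mean log2 CPM was 2.69 ± 1.13 (SD, n = 7) for KO against 5.32 ± 0.61 (SD, n = 5) for WT, and the exact two-sided permutation p was 0.00126, the smallest that 792 regroupings can give. The fitted level was 5.50-fold lower in KO (log2 −2.46 ± 0.46, SE), which ranked Ido2 at 11 of 14666 genes by p. EdgeR's adjusted p was 0.170, DESeq2 gave an adjusted p of 0.000136 and limma-voom with sample weights 0.00765. Without sample weights, limma-voom gave an adjusted p = 0.105.

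Ido2 was lower in KO in both depth classes: mean log2 CPM differed by −2.33 (shallower) and −3.04 (deeper), and the groups did not overlap in either class, which held for 5.41% (shallower) and 20.4% (deeper) of all genes. It differed by −2.89 in the libraries low in Xist (2 KO and 4 WT) and by −2.26 in those high in it (5 KO and 1 WT). Xist is the RNA of the inactive X chromosome, and the labels state no sex. Most KO libraries were Xist-high and most WT libraries Xist-low, so genotype and Xist class cannot be fully told apart for any of the 9 genes. With Xist class as covariate, the fitted log2 fold change (SE) was −2.60 ± 0.60 for Ido2, −1.53 ± 0.84 for Kynu and −0.31 ± 0.51 for Tdo2. In that fit 4 of 9 genes, all lower, had an unadjusted edgeR p under 0.05. The share of all genes at that level was not computed for that fit. Ido2 counts ran from 58 in KO replicate 5 to 1816, so the lowest KO value rests on few reads. With 1 library left out at a time, the fold change of Ido2 ran from −2.16 without WT replicate 3 (edgeR adjusted p = 0.328) to −2.70 without KO replicate 6 (adjusted p = 0.0399, the only omission that passed). The largest adjusted p was 0.409, without WT replicate 5.

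Ido2 also took a smaller share of the first-step reads. Per kilobase, Ido2 made up 3.45% to 11.2% of the summed Tdo2, Ido2 and Ido1 signal in WT, with a median of 4.86%. In KO the share ran from 0.525% (replicate 5) to 4.46% (replicate 1), with a median of 1.82%. The log2 ratio of Ido2 to Tdo2 reads averaged −6.42 ± 1.10 (SD, n = 7) for KO against −4.49 ± 0.82 (SD, n = 5) for WT, and only KO replicate 1 reached the WT range. Ido1, the interferon-induced enzyme of the same step, was too low to be tested. It had 56 counts in KO replicate 2 and at most 8 in each of the other 11 libraries. It was at 0 in 3 libraries, where a count of 0 allows up to 3 counts, for counting error only.

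Afmid (chr11:117825503-117839908), the formamidase that releases kynurenine, had 28.0 CPM at the lowest, 48.0 at the median and 107 at the highest in KO. WT replicates 1 to 5 held 44.3, 175, 174, 90.3 and 134 CPM. WT replicate 1 lay within the KO range and the other WT libraries lay above all KO libraries but replicate 6, which passed WT replicate 4. The fold change was −1.15 ± 0.38 (fitted log2, SE; edgeR adjusted p = 0.235; exact permutation p = 0.0328 before adjustment). By depth class, mean log2 CPM differed by −1.14 (shallower) and −1.16 (deeper). The annotation has a second gene model, Gm20708, on the same strand across 67.3% of the Afmid exon bases, and Gm20708 is not among the genes of the table analysed here. How reads of the shared exons were counted is therefore not known.

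Kmo (chr1:175632193-175660853), the mitochondrial outer membrane enzyme that hydroxylates kynurenine, had 98.9 CPM at the lowest, 132 at the median and 265 at the highest in KO. In WT replicates 1 to 5 it stood at 203, 488, 347, 186 and 500 CPM. Of the KO libraries 5 lay below all WT libraries, and replicates 2 and 6 lay within the WT range. The level was 2.24-fold lower in KO (log2 −1.16 ± 0.31, SE; edgeR adjusted p = 0.195; DESeq2 adjusted p = 0.0227), with an exact permutation p = 0.0101. By depth class, mean log2 CPM of Kmo differed by −0.66 (shallower) and −1.80 (deeper). The difference was −1.68 in the Xist-low and −0.20 in the Xist-high libraries, of which 1 is WT.

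Kynu (chr2:43555258-43683048), the kynureninase that cuts 3-hydroxykynurenine to 3-hydroxyanthranilate, varied widely among KO libraries, from 15.1 CPM (replicate 1) over a median of 54.3 to 205 CPM (replicate 6). WT replicates 1 to 5 held 81.5, 400, 150, 116 and 369 CPM. KO replicates 5 and 6 lay within the WT range and the other 5 below it. The fold change was −1.66 ± 0.61 (fitted log2, SE; edgeR adjusted p = 0.262; exact permutation p = 0.0265), and DESeq2 did not call it. It was −2.22 without KO replicate 6, and −1.34 and −1.40 without WT replicates 2 and 5, where the unadjusted edgeR p was above 0.05. Depth made little difference to it, at −1.86 (shallower) and −1.95 (deeper). The lowest Kynu levels were those of KO replicates 1 and 3, at 15.1 and 23.3 CPM, where Kmo stood at 150 and 132 CPM.

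Haao (chr17:83831348-83848981), the dioxygenase that opens the ring of 3-hydroxyanthranilate, had 47.9 CPM at the lowest (replicate 5), 107 at the median and 248 at the highest in KO. Its WT levels in replicates 1 to 5 were 157, 467, 407, 205 and 418 CPM. KO replicates 1, 2 and 6 lay within the WT range and the other 4 lay below it. The level was 2.48-fold lower in KO (log2 −1.31 ± 0.39, SE; edgeR adjusted p = 0.211; DESeq2 adjusted p = 0.0390), with an exact permutation p = 0.0139. In the shallower libraries mean log2 CPM differed by −0.80, and in the deeper ones by −2.17.

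The product of Haao stands at a fork: left alone it closes to quinolinate, the substrate of Qprt on the way to NAD, and Acmsd removes it towards complete oxidation. Qprt (chr7:127107770-127122029), the phosphoribosyltransferase that commits quinolinate to NAD, was the steadiest gene of the set. It ran from 127 CPM over a median of 143 to 240 CPM in KO, and stood at 136, 269, 207, 141 and 275 CPM in WT replicates 1 to 5. WT replicates 1, 3 and 4 lay within the KO range, and replicates 2 and 5 above it. The fold change was −0.35 ± 0.22 (fitted log2, SE; edgeR adjusted p = 0.480; exact permutation p = 0.199), and mean log2 CPM differed by −0.02 (shallower) and −0.76 (deeper).

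Acmsd (chr1:127729413-127767564), the decarboxylase that draws carbon away from NAD synthesis, was the gene that spread most among WT libraries. WT replicates 1 to 5 held 33.9, 192, 81.4, 6.39 and 192 CPM, so that WT replicate 4 was the lowest of all 12 libraries. KO ran from 12.5 CPM over a median of 33.0 to 87.6 CPM (replicate 3), and every KO level lay within the WT range. The fold change was −1.34 ± 0.72 (fitted log2, SE) and its edgeR adjusted p was 0.402, with an exact permutation p = 0.336. Its direction differed by depth, with mean log2 CPM higher by 0.55 in the KO than in the WT shallower libraries and a difference of −3.02 in the deeper ones. A test of that difference over all genes gave an edgeR adjusted p = 0.538 for Acmsd, and 0% of genes passed.

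Aadat (chr8:60505843-60545677), the aminotransferase that turns kynurenine into kynurenic acid, had 16.0 CPM at the lowest, 29.2 at the median and 97.7 at the highest in KO. In WT replicates 1 to 5 it stood at 16.1, 109, 42.4, 43.1 and 91.3 CPM, so the groups covered nearly the same range. The fold change was −0.66 ± 0.49 (fitted log2, SE; edgeR adjusted p = 0.539; exact permutation p = 0.292). It was −1.09 without KO replicate 6, −0.34 without WT replicate 2 and −0.46 without WT replicate 5, the libraries with the highest Aadat levels.

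The 250 bases before the start are shown for Kmo and Haao, which DESeq2 called, and for Qprt, which had the smallest fold change of the set. The sequences are RefSeq's for GRCm38.p6, printed 5′ to 3′ on the strand of the gene, at chr1:175631943-175632192 (plus strand) for Kmo, chr17:83846791-83847040 (minus) for Haao and chr7:127122030-127122279 (minus) for Qprt. The start that RefSeq's table uses for Haao lies inside the gene span given above. Capitals mark matches to the motifs named after them.
Kmo: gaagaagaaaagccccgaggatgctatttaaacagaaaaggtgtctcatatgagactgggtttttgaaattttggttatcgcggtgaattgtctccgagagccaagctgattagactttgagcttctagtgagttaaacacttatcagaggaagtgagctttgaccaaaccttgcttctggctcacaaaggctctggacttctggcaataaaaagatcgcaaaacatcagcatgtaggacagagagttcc
Haao: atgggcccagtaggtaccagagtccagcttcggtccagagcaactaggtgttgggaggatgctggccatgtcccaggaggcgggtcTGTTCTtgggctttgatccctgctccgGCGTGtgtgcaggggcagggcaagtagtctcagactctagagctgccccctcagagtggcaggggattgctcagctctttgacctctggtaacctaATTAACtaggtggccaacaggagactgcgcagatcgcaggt
Qprt: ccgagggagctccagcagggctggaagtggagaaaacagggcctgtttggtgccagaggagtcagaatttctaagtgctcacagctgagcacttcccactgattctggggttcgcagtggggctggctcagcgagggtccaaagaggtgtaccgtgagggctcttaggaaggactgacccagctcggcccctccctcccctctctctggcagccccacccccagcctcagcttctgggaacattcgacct

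Promoter entries were matched by symbol for 7 of 9 genes, and Ido2 and Kynu had none. The motifs were searched on both strands: GTTAAT (HNF1), TTGCNNAA (C/EBP), CAAAGTCCA (HNF4), GCGTG (aryl hydrocarbon receptor core), TGTTCT (glucocorticoid receptor), TATAAA (the box that binds the TBP protein) and GGGCGG (GC box). In Haao the 250 bases held 1 match each to the HNF1, aryl hydrocarbon receptor and glucocorticoid receptor motifs, and in Kmo and Qprt they held 0 matches to any of them. Over 32851 promoters of that length, 6.43% held GTTAAT, 28.2% GCGTG, 16.1% TGTTCT and 0.384% CAAAGTCCA. Of the 7 members, Aadat held CAAAGTCCA, Tdo2 held TATAAA and GCGTG, and Afmid and Aadat held GGGCGG, which 32.7% of promoters have. TTGCNNAA was in 0 of 7 members and in 9.56% of promoters, and TATAAA in 12.4%. A match describes these letters and not a bound site.

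Ratios of read counts within a library do not depend on the scaling between libraries. The log2 ratio of Qprt to Kmo ran from −0.15 to 0.45 in KO (mean 0.11 ± 0.25, SD, n = 7) and from −0.86 to −0.40 in WT (mean −0.69 ± 0.20, SD, n = 5). All 7 KO libraries lay above all 5 WT libraries, a separation that 2.56% of genes had in their ratio to Kmo. Ido2 moved the other way against Kmo, with a log2 ratio of −6.39 to −3.92 in KO and of −3.56 to −2.21 in WT. That separation was seen for 0.0205% of genes, namely Ido2, Gm11437 and Lyrm7, of which the last 2 were named after their values were seen. The ratio of Haao to Kmo varied less, at −0.31 ± 0.41 in KO and −0.06 ± 0.26 in WT (SD, n = 7 and 5), and its groups overlapped. At the fork, the log2 ratio of Acmsd to Qprt averaged −2.35 ± 0.99 in KO and −1.77 ± 1.64 in WT (SD, n = 7 and 5), and the WT range enclosed every KO library. These ratios were chosen with the counts in view.

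**Figure D2:**
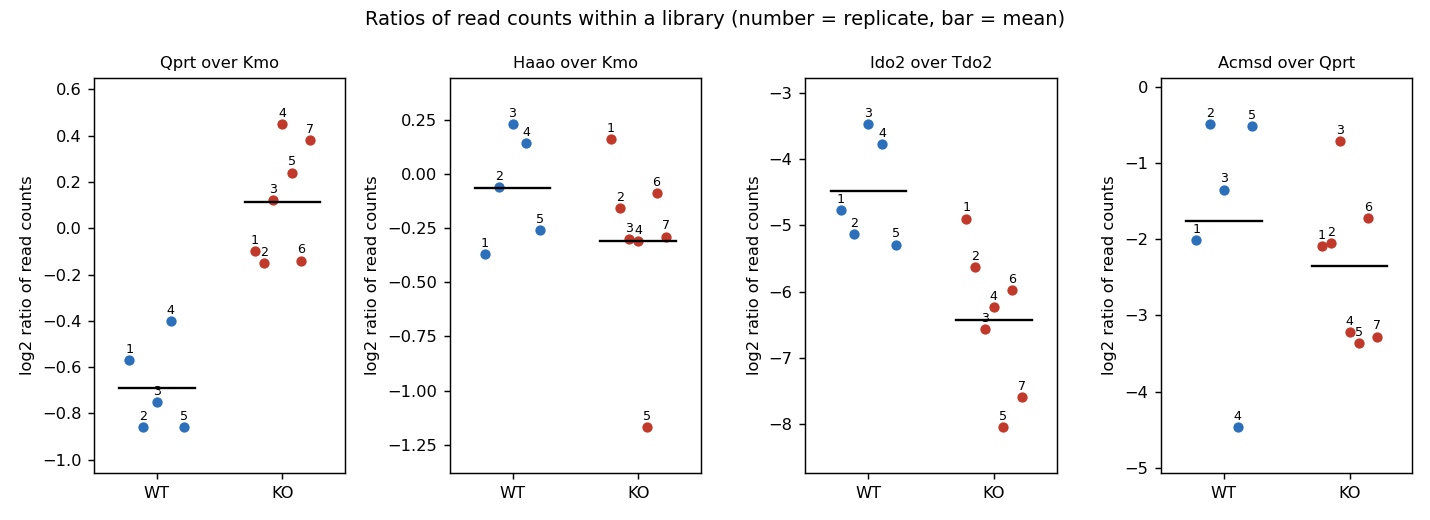
Log2 ratio of read counts within each of the 12 libraries for Qprt over Kmo, Haao over Kmo, Ido2 over Tdo2 and Acmsd over Qprt; the number is the replicate and the bar the group mean. The Qprt to Kmo ratio is −0.15 or more in all KO libraries and −0.40 or less in all WT libraries, while the Acmsd to Qprt ratios overlap.

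The libraries differed along the whole set. WT replicates 2 and 5 were among the 3 highest libraries for 9 of 9 genes, and in 8 genes all KO libraries lay below both of them, which held for 10.5% of all genes. KO replicate 6 was the highest KO library in 8 of 9 genes, and Acmsd, where KO replicate 3 was highest, was the exception. Its mean rank over the 9 genes was 9.22 of 12, against 2.89 to 5.11 for the other KO libraries. Of the WT libraries, replicate 1 was the lowest in 6 genes and replicate 4 in 3, with mean ranks of 5.33 and 6.33.

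**Figure D3:**
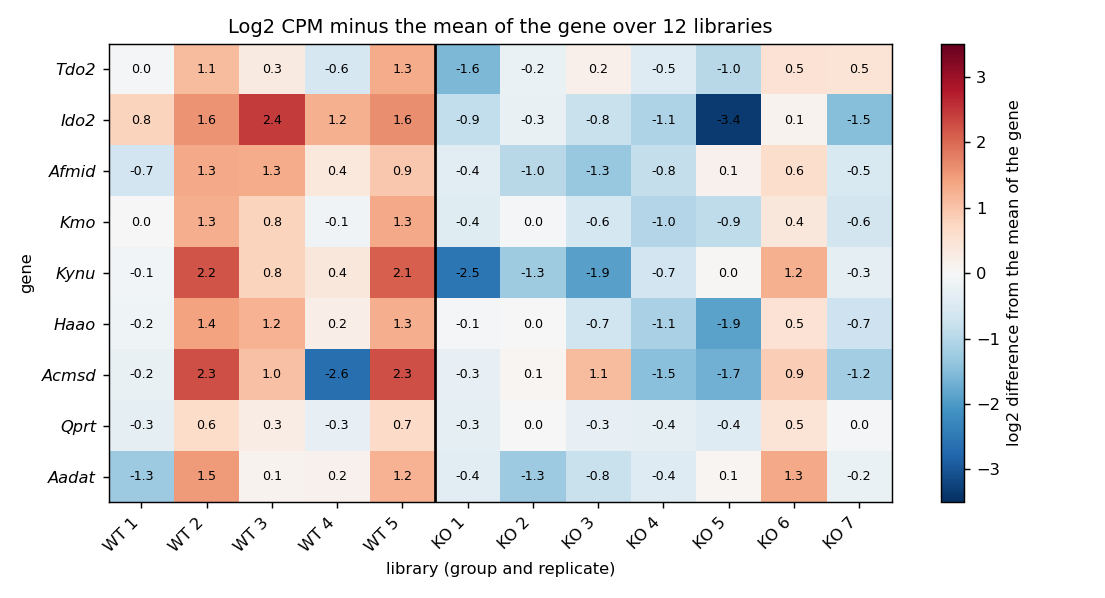
Log2 CPM of each gene (rows) in each library (columns) minus the mean of the gene over the 12 libraries; red is above and blue below that mean, and the black line parts WT from KO. WT replicates 2, 3 and 5 and KO replicate 6 are above the mean throughout, and the lowest cells are Ido2 in KO replicate 5, Acmsd in WT replicate 4 and Kynu in KO replicate 1.

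With WT replicates 2 and 5 and KO replicate 6 left out, mean log2 CPM still differed by −2.79 for Ido2, −1.47 for Kynu, −1.18 for Haao, −0.99 for Afmid and −0.83 for Kmo. Over the same 9 libraries Tdo2 differed by −0.32, Aadat by −0.18, Qprt by −0.11 and Acmsd by 0.05. In the deeper libraries, of which the WT ones are replicates 2 and 5, all 3 KO libraries lay below both WT libraries in 8 of 9 genes, beside 20.4% of all genes. These WT libraries are the 2 most alike of the 12. In the shallower libraries that held for 2 of 9 genes, Ido2 and Kynu, beside 5.41% of all genes, and 8 of 9 differences were negative, beside 50.5%. Among the Xist-low libraries 9 of 9 differences were negative (49.4% of all genes) and among the Xist-high ones, with 1 WT library, 6 of 9 (50.6%). The numbers in the library titles fall into 3 ranges whose meaning is not stated, and 7, 9 and 8 of 9 differences were negative within them, beside 50.4%, 51.5% and 49% of all genes.

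**Figure D4:**
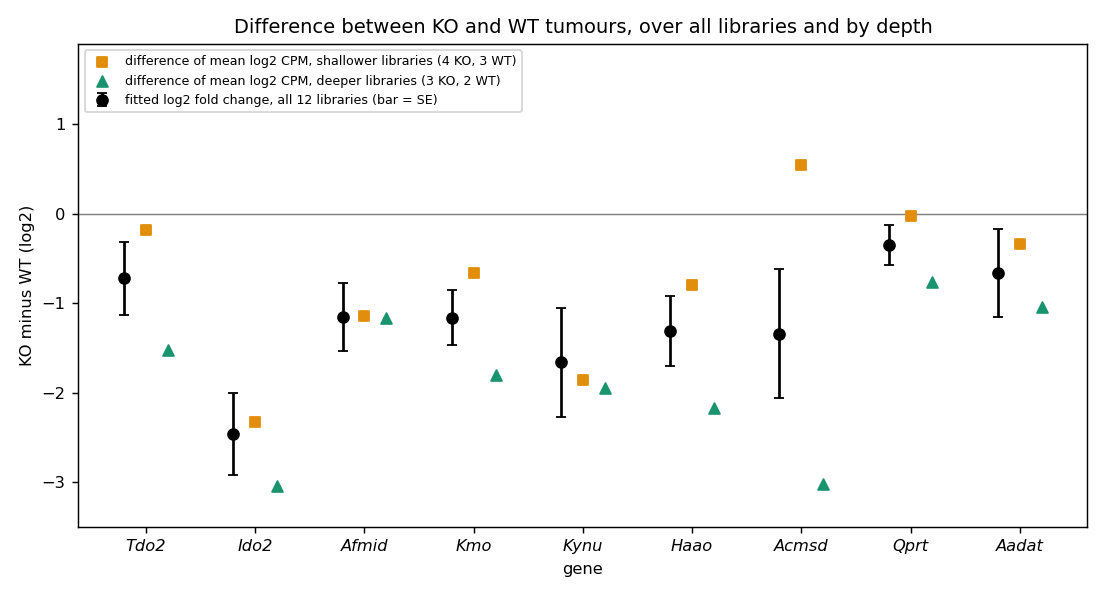
KO minus WT on the log2 scale for each gene: black circles with SE bars are the fitted log2 fold changes over 12 libraries, orange squares the difference of mean log2 CPM in the shallower libraries and green triangles that in the deeper libraries. Afmid and Kynu have similar values in both depth classes, Ido2 has −2.33 and −3.04, and Acmsd has 0.55 in one and −3.02 in the other.

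Within the 7 KO libraries the levels of the genes were compared pair by pair. Of 36 pairs, 30 had a positive Pearson r, with a median of 0.43, and 0 passed an adjusted p under 0.05 by exact permutation. The share of positive pairs among all genes was not computed, and KO replicate 6 was the highest KO library in 8 of the 9 genes. Without the 2 libraries farthest from the median of 1 gene of a pair, some positive pairs became negative, Kmo with Kynu among them, and others stayed positive. The closest pair by Spearman's rho was Kmo and Haao (r = 0.89, exact p = 0.00516, adjusted p = 0.0619; rho = 0.96, exact p = 0.00278, adjusted p = 0.0810). Kmo with Qprt had r = 0.90 (exact p = 0.00774, adjusted p = 0.0697) and 0.45 without the 2 farthest libraries, so that relation rests on them. For Kmo and Haao, without the 2 libraries farthest from the Kmo median, r was 0.82. Ido2 with Haao and Afmid with Aadat each had r = 0.90 (exact p = 0.00337 and 0.00437, adjusted p = 0.0619 for each; rho = 0.93 for each, exact p = 0.00675, adjusted p = 0.0810). Without the 2 farthest libraries r was 0.64 and 0.82 for these pairs.

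Other genes of the route were read from lists around the 9 members. Beside each list count stand the same shares over all genes tested, of which 46.3% were negative. At an unadjusted edgeR p under 0.05, 7.44% were lower and 7.25% higher. Of 7 further enzymes of kynurenine breakdown, 6 were tested and all 6 had a negative fold change, with a median of −0.53. At an unadjusted p under 0.05 there were 2 lower, namely Aldh8a1, the dehydrogenase that follows Acmsd (fitted log2 −0.82 ± 0.25, SE), and Kyat3, a second kynurenine aminotransferase (−1.14 ± 0.39). Kyat1, another aminotransferase, had −0.55 ± 0.48, and Got2, the mitochondrial aspartate aminotransferase, −0.22 ± 0.19. EdgeR called 0 of the 6 after adjustment (adjusted p = 0.218 for Aldh8a1 and 0.242 for Kyat3), and DESeq2 also called 0.

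Among 12 genes that make or phosphorylate NAD or carry it or its precursors, 10 were tested, 7 were negative and 3 positive, and the median was −0.29. Those with an unadjusted p under 0.05 were Nmrk1, the nicotinamide riboside kinase (fitted log2 −1.01 ± 0.27, SE; edgeR adjusted p = 0.195), and Slc25a51, the mitochondrial NAD carrier (−1.01 ± 0.36, adjusted p = 0.252). Nadsyn1, the last enzyme of NAD synthesis from the kynurenine side, had −0.35 ± 0.19 and Nmnat1, the nuclear adenylyltransferase, −0.56 ± 0.36. EdgeR called 0 genes of this list after adjustment, and DESeq2 called 1, Nmrk1 (adjusted p = 0.0274).

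Of 6 amino acid carriers that take tryptophan, 4 were positive, with a list median of 0.85. Slc7a5, the large neutral amino acid carrier, was 4.21-fold higher in KO (fitted log2 2.07 ± 0.62, SE; edgeR adjusted p = 0.211; DESeq2 adjusted p = 0.0164), and Slc36a4 had 0.69 ± 0.25 (adjusted p = 0.252). Slc3a2, the partner chain of Slc7a5, had −0.47 ± 0.28. Of 11 genes for other uses of tryptophan, 6 were tested and 1 had an unadjusted p under 0.05, the monoamine oxidase Maob at −0.96 ± 0.43 (edgeR adjusted p = 0.328). Ahr, the receptor that kynurenine can bind, had 0.99 ± 0.33 (edgeR adjusted p = 0.235), while Cyp1a1 at −1.05 ± 0.78, Cyp1b1 at −0.64 ± 0.45 and Cyp1a2 at 1.43 ± 1.18, genes it is known to drive, pointed in different directions with large errors. The list of this receptor and its targets had 1 of 7 genes tested with an unadjusted p under 0.05 and a median of 0.01.

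Of 8 transcription factors of hepatocyte amino acid genes, 7 were negative, with a median of −0.17. Cebpa, which keeps up hepatocyte metabolism genes, had −0.72 ± 0.23 (fitted log2, SE; edgeR adjusted p = 0.222), Foxo1 −0.34 ± 0.16 and Ppara 0.36 ± 0.19. Enzymes that break down other amino acids had the list median closest to that of the 9 genes, −0.96. Of them 16 of 16 were negative, beside 46.3% of all genes tested. Hal, Sds and Gls2 of this list are also among the periportal markers below, so the 2 lists are not separate observations. At an unadjusted p under 0.05 there were 6 of 16, among them Uroc1 (−1.49 ± 0.55) and Ftcd (−1.22 ± 0.49) of histidine breakdown and Aass of lysine breakdown (−1.96 ± 0.81). EdgeR and DESeq2 each called 0 genes in these lists after adjustment, as in those of the aryl hydrocarbon receptor and of other uses of tryptophan.

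**Figure D5:**
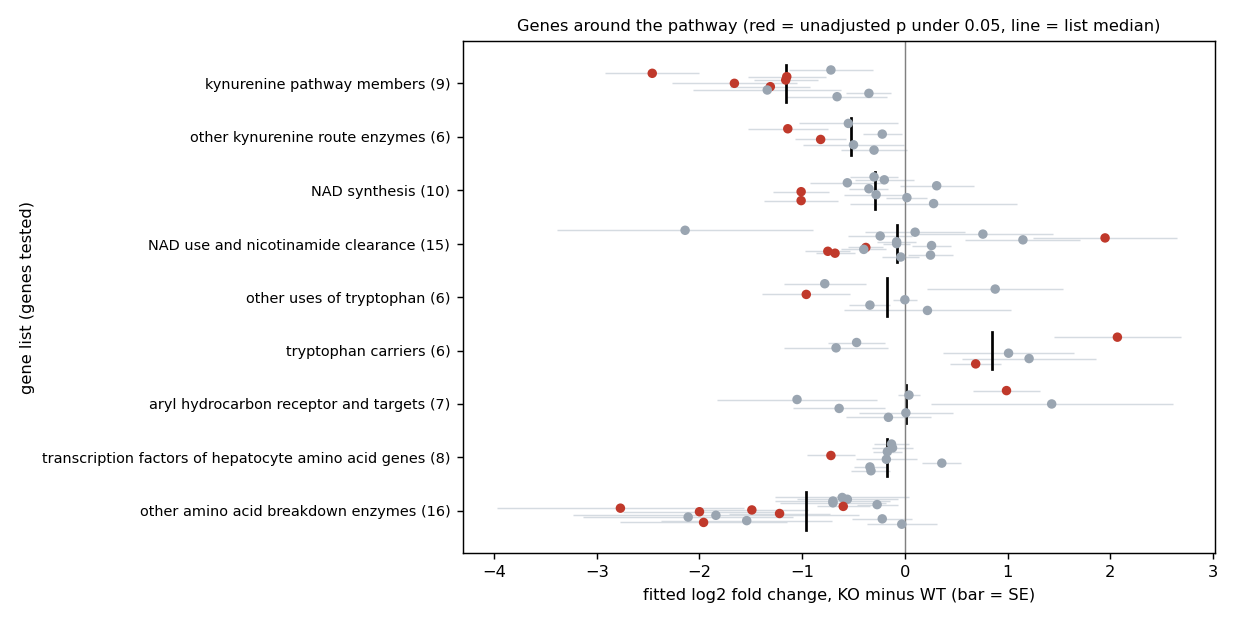
Fitted log2 fold change (KO minus WT, bars are SE) of each tested gene in the 9 lists around the pathway, with the number tested in brackets; red points have an unadjusted p under 0.05 and the black line is the list median. The medians lie at −1.16 for the 9 members, −0.96 for other amino acid breakdown enzymes and 0.85 for tryptophan carriers.

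The genes most like each member over the 12 libraries were found by Pearson's r of log2 CPM among 14657 other genes, as a description of libraries that share genotype and depth differences. Kmo was closest to Shmt1 (r = 0.968, rho = 0.937), Masp2 and Lap3, and Haao to Aspdh (r = 0.983, rho = 0.965), Shmt1 and Cyp3a25. Kynu was closest to Ftcd (r = 0.974, rho = 0.965), Apon and Amdhd1, and Afmid to Acad8 (r = 0.987, rho = 0.993), Sardh and Aldh7a1. Ido2 was closest to Gm11437 (r = 0.968, rho = 0.937), Fggy and Slc47a1, and Tdo2 to Sap18b (r = 0.926, rho = 0.930), Tbc1d8 and Gm36691. Qprt was closest to Phb2 (r = 0.976, rho = 0.944), Gm10039 and Ndufs3, Aadat to Timm44 (r = 0.958, rho = 0.944), Gstk1 and Apmap, and Acmsd to Heatr1 (r = 0.929, rho = 0.888), Slc25a15 and Etnk2. The mean of the 9 scaled genes was closest to Iah1 (r = 0.975, rho = 0.867), Gm10039, Aldh8a1, Ndufa13 and N4bp2l1.

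Markers of hepatocyte zones and other cell types also differed among the libraries. The 5 periportal markers (Cyp2f2, Hal, Sds, Gls2 and Ass1) summed to 195 to 8140 CPM in KO, with 8140 in KO replicate 6 and at most 1610 in the others. In WT they summed to 1410 in replicate 1, 2940 in replicate 4 and 7360 to 10100 in the others, and 2 of the 5 markers had an unadjusted p under 0.05. The 6 pericentral markers summed to 32700, 20100 and 24100 CPM in KO replicates 1, 2 and 3. They summed to 82.9 to 3640 CPM in the other KO libraries and to 845 to 6830 CPM in WT. Of these markers 6 of 6 had a positive fold change, 1 of them with an unadjusted p under 0.05. Kmo and Kynu are also expressed by macrophages. The 9 Kupffer cell and macrophage markers summed to 330 to 587 CPM in 6 KO libraries, to 2920 CPM in KO replicate 6 and to 649 to 1460 CPM in WT. Of these 9 markers 5 had a negative and 4 a positive fold change, with a median of −0.22, and 1 had an unadjusted p under 0.05, Clec4f at −2.47 ± 0.87 (fitted log2, SE; edgeR adjusted p = 0.250). The 8 neutrophil markers summed to 1600, 242 and 384 CPM in KO replicates 3, 4 and 6 and to 26.1 to 39.1 CPM in the other KO libraries. WT replicate 2 was the lowest library for them at 20.8 CPM, and the KO libraries other than replicates 3, 4 and 6 lay within the WT range. Of these markers 8 of 8 had a positive fold change with an unadjusted edgeR p under 0.05, where 7.25% of all genes tested were higher at that level. By exact permutation of mean log2 CPM, only Mmp8 had a p under 0.05, and the largest p was 0.346, for Ltf. The marker sum was high in KO replicates 3, 4 and 6 alone, and no fit without these 3 libraries was run. Taken singly, Mpo and Elane lay above all WT libraries in 5 KO libraries each, and Mmp8 in 4. S100a8, S100a9, Camp, Ngp and Ltf did so in 3 each. The 6 endothelial markers summed to 126 to 499 CPM in KO and 317 to 476 CPM in WT. Of these markers 6 of 6 had a negative fold change, beside 46.3% of all genes tested. An unadjusted edgeR p under 0.05 was found for 3 of 6, all lower, beside 7.44% of all genes lower at that level. No marker of these lists was at 0 in all libraries, and their part in the levels of the 9 genes was not tested. Kidney, another tissue with much Acmsd, had 5 markers that summed to at most 4 counts in any library, with Slc12a1 and Kap at 0 in all.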

How the data were processed

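RNA was prepared with Trizol, and the labels' protocols state an RNA integrity number above 8.0. The authors deposited one table of raw counts: reads per gene symbol, whole and without normalization. HISAT2 and mm10 are named in the submitters' processing notes. The counting program, its strand setting and the annotation release were not given in the sources used here, and reads from genes that overlap, on either strand, may be shared or lost.

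Libraries were grouped by the genotype label (7 KO, 5 WT) and numbered in accession order. filterByExpr (minimum count 10, minimum total 15) kept 14666 genes holding 99.9% of the reads. KO was compared with WT by edgeR 4.0.16 in R 4.3.3, with TMM scaling, a robust quasi-likelihood fit without covariates and Benjamini-Hochberg adjustment over all genes at 0.05. SE was taken as the log2 fold change divided by the root of its F statistic. Log2 CPM had a prior count of 2, and exact two-sided permutation went through all 792 regroupings. Alternatives were DESeq2 1.42.0, limma 3.58.1, other scalings, filters, covariates and subsets of libraries. In counts simulated for KO against WT (14482 genes), 4-fold changes were found by edgeR in 40 of 50 higher and 37 of 50 lower genes, 2-fold changes in 14 of 50 and 11 of 50, and 3 of 14282 unchanged genes were called. Each gene was simulated independently, without differences that many genes share across libraries. These detection rates may therefore not hold in the data, where the same fit called 0 genes. The genes named are the 9 members, Pck1, some or all of the 4 genes of smallest p in each list, and those most alike to each member. Others were named after their values were seen. Members, lists and library classes were chosen with earlier results of these data known.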

Additional observations from a re-analysis of the deposited data

How the results depend on the processing

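Of 279 fold changes of the 9 genes under the alternatives, which refit the same libraries and are not independent, 275 were negative. The 4 positive ones came from subsets of libraries: in the Xist-high libraries alone, with 1 WT library, Tdo2 had 0.32, Acmsd 2.92 and Qprt 0.19, and in the shallower libraries alone Acmsd had 0.15. The number of the 9 genes called was 3 with DESeq2 and 5 with limma-voom with sample weights, and leaving out 1 library in turn gave 0 to 1, the 1 being Ido2 without KO replicate 6. The share of all genes at an unadjusted p under 0.05 was computed only for the main edgeR fit (7.44% lower, 7.25% higher). The counts of members from other fits that follow have no such share beside them. At that level the count of 5, all lower in KO, became 9 with limma-voom with sample weights (all lower). It was 4 to 7 with 1 library left out (all lower). In the Xist-high libraries alone it became 0 lower and 1 higher, Acmsd. Over all genes, 0 calls became 1 with upper quartile scaling, with no scaling, with no filter or with at least 1 CPM in 5 libraries. They became 490 with DESeq2, 2138 with limma-voom with sample weights and 5 without weights. With a covariate they became 2 (title number range) and 3 (depth class), and in subsets 2 (deeper libraries) and 34 (Xist-low libraries). With 1 library left out they ran from 0 to 65, the latter without KO replicate 6. The causes were not tested. Library size alone shifted the median over all genes by 0.13 (log2), and all 9 genes stayed negative. Alternatives chosen after seeing the data were WT replicates 2 and 5 summed as 1 library and the 3 most alike libraries left out. With the prior count at 0.5, each permutation result stayed on its side of 0.05. No paired analysis was possible because the labels give no replicate numbers shared by the groups. Low counts limit Ido1, with at most 56 in any library, and Ido2, with 58 in KO replicate 5, a deeper library. The other members had at least 134 counts in every library.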

Other observations

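Genes that use NAD or clear nicotinamide did not share a direction: of 15 tested, 9 had a negative and 6 a positive fold change, with a median of −0.08. At an unadjusted p under 0.05, 3 were lower in KO and 1 higher. The mitochondrial sirtuins Sirt5 and Sirt4 had −0.68 ± 0.19 and −0.75 ± 0.22 (fitted log2, SE; edgeR adjusted p = 0.209 and 0.211), and Sirt2 had −0.38 ± 0.17. Bst1, an NAD-cleaving surface enzyme also found on myeloid cells, had 1.95 ± 0.70 (edgeR adjusted p = 0.251). Neutrophil markers were high in 3 KO libraries, and their part in the Bst1 value was not tested. EdgeR called 0 of the 15 after adjustment, and DESeq2 called 2, Sirt5 (adjusted p = 0.0383) and Sirt4 (0.0407).

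In none of the 18 sets of values (9 genes in each group) did 1 library stand apart by its gap over the range of the group. The nearest was Ido2 in KO replicate 5, with 0.43 log2 CPM against 2.30 in the next library. The test of whether the difference between genotypes varied with Xist class gave Acmsd an interaction of −5.93 on the log2 scale (edgeR adjusted p = 0.558), with WT replicate 4 as the single Xist-high WT library.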
